A study of Mus musculus with 6 samples.

Results

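The annexins and their S100 partners were followed in the livers of mice that had lost *Spns1*, the gene of a lysosomal lipid transporter. The group was taken by gene name from the table of counts and comprised the annexin genes *Anxa1* to *Anxa7* and the S100 genes *S100a6*, *S100a10* and *S100a11*, which were 10 of the 54532 genes listed. All 10 had enough reads to be among the 15449 genes tested. RNA-Seq was performed on 3 g*Spns1*-cKO livers and 3 control livers, 1 library per sample. The g*Spns1*-cKO mice were Spns1 fl/fl animals with Cre-ERT2, a Cre recombinase switched on by tamoxifen, at Rosa26. Tamoxifen was given at 50 mg/kg on postnatal days 11, 13 and 15. By the study's account Cre then removes exon 3 of *Spns1*, which shifts the reading frame. The deletion was made in the whole body and so was not limited to hepatocytes. The methods of the study use Spns1 fl/fl littermates as controls, whereas the sample labels call the controls wild type and the others SPNS1 KO. Whether control mice received tamoxifen, and the age and sex of the mice sequenced, is not given in the sources used here. Nothing says whether libraries of a group came from separate litters, so the p-values measure only the spread between these samples.

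Annexins are soluble proteins that bind acidic phospholipids at the inner face of membranes when calcium rises, and they gather at injured plasma membrane and on endosomes and lysosomes. S100 proteins are small proteins, most of them calcium-binding, and several pair with annexins. S100A10 binds the amino-terminal tail of annexin A2 and S100A11 that of annexin A1, and such pairs can bridge adjacent membranes. In the healthy liver annexin A6 is known from hepatocytes, while annexins A1, A2 and A3 are better known from bile duct, immune and other nonparenchymal cells. In tissue libraries such as these, a change in the number of cells of a type and a change in RNA per cell cannot be told apart.

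The libraries held between 30350002 and 35295611 counts. *Spns1* (chr7:126370060-126377450 of GRCm38, minus strand) had 1008, 1562 and 875 counts in control libraries against 642, 1175 and 698 in g*Spns1*-cKO libraries. These counts cover the whole gene, so the loss of exon 3 alone cannot be seen in them. Read as CPM, the counts relative to library size after scaling by edgeR's TMM factors, all 3 g*Spns1*-cKO libraries lay below all 3 controls. The quasi-likelihood test of edgeR, here called edgeR, gave a log2 fold change of -0.87 ± 0.25 (SE, edgeR adjusted p = 0.0300, by the Benjamini-Hochberg method over all genes tested). Under scaling by library size only this was -0.43 (adjusted p = 0.213), and without single libraries it ranged from -1.18 to -0.68, with adjusted p up to 0.0910. The TMM factors were 0.834 to 0.873 in controls and 1.16 to 1.18 in g*Spns1*-cKO libraries. The choice of scaling therefore moved all values together, and library size only raised the median over all genes tested from 0.014 to 0.46 on the log2 scale. Markers of hepatocytes were abundant, with summed levels of 97054 to 111638 CPM in controls and 60445 to 69653 CPM in g*Spns1*-cKO livers, so the libraries matched the tissue on their labels.

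The S100 partners are shown first by their coding sequences, because *S100a10* was not called between the groups while the other S100 genes were. They come from GENCODE M21 transcripts on GRCm38, each spliced from 3 exons and read from the start to the stop codon, both in capitals. All 3 genes lie on the plus strand, at chr3:90612882-90624181 (*S100a6*), chr3:93555080-93564643 (*S100a10*) and chr3:93520488-93526287 (*S100a11*).
S100a6: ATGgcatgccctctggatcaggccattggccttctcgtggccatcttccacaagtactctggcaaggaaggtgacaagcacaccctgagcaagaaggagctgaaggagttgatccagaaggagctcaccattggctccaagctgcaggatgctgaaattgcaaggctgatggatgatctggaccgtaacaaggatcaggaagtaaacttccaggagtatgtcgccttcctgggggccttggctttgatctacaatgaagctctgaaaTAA
S100a10: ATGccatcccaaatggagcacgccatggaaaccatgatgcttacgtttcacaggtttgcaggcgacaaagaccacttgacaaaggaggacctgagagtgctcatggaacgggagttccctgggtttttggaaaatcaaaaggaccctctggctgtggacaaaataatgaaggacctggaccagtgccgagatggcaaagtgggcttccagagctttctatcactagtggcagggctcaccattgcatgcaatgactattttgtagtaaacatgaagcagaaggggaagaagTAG
S100a11: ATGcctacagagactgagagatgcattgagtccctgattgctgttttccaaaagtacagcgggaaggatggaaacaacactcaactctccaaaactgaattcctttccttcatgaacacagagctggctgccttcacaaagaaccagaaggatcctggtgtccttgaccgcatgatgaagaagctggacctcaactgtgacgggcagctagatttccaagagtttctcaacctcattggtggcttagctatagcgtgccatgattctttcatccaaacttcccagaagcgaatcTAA
These run over 270, 294 and 297 bases and encode 89, 97 and 98 residues. *S100a10* and *S100a11* shared 54.0% of aligned coding bases and 37.0% of residues. *S100a6* shared 23.0% of residues with *S100a10* and 31.6% with *S100a11*.

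The first 60 coding bases of *Anxa2* and *Anxa1* are shown as well, with the start codon in capitals, since the tails that S100A10 and S100A11 bind are encoded at this end of the messages.
Anxa2: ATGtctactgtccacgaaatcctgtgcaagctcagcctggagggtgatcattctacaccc
Anxa1: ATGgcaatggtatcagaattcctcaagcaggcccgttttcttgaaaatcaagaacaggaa
Over the whole coding sequence these genes shared 58.4% of bases. The annexin messages encode 319 residues (*Anxa4* and *Anxa5*) to 673 (*Anxa6*), and *Anxa4* and *Anxa5* were the most alike, with 56.2% of residues in common.

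In g*Spns1*-cKO livers 7 of the 10 members were higher than in controls, 3 were not called and 0 were lower (adjusted p under 0.05, edgeR as above). Among all genes tested 21.3% were called higher and 20.5% lower, or 3286 and 3166 genes, which became 7289 and 970 under library size only and 4111 and 2240 under upper-quartile scaling. The members that rose were *Anxa1*, *Anxa2*, *Anxa3*, *Anxa4* and *Anxa5* of the 7 annexins, and *S100a6* and *S100a11* of the 3 S100 genes. For 6 of them the rise was at least 2-fold, as it was for 12.6% of all genes. All 3 g*Spns1*-cKO libraries lay above all 3 controls for 8 members, against 27.1% of all genes, and below them for 0 members, against 26.9%. The median log2 fold change of the members was 1.39, beside 0.014 over all genes tested. By limma-voom 8 members were higher and 0 lower, by DESeq2 7 and 0, and at an unadjusted p under 0.05 by edgeR 8 and 0.

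**Figure D1:**
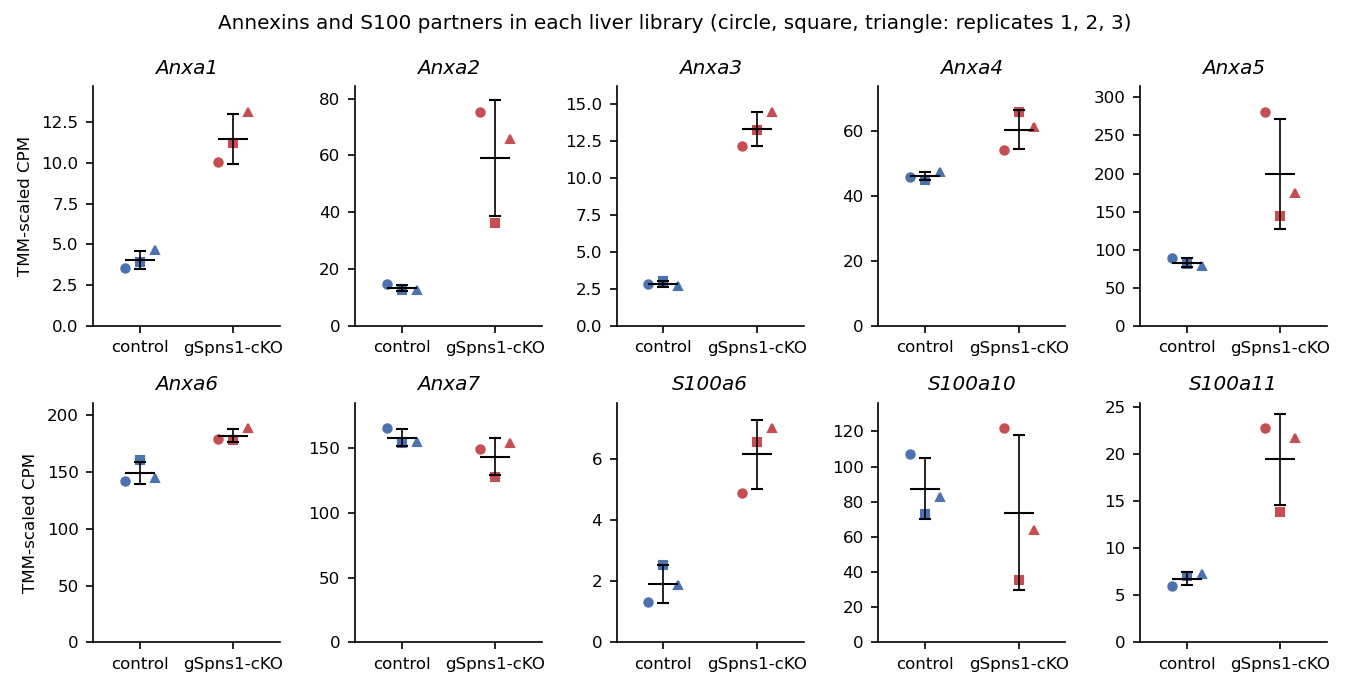
TMM-scaled CPM of each member in every library (y axis, linear from 0), with 3 control libraries in blue and 3 g*Spns1*-cKO libraries in red and the mean ± SD in black. The g*Spns1*-cKO libraries lie above the controls in 8 panels and overlap them for *Anxa7* and *S100a10*.

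*Anxa2* encodes the annexin that carries S100A10, sits on endosomes and the cell surface, and binds plasminogen and its activator there. It lies at chr9:69453620-69491795 on the plus strand. It was at 14.6, 12.6 and 12.7 CPM in the control livers and at 75.4, 36.4 and 65.7 CPM in the g*Spns1*-cKO livers. The groups did not overlap, and the second g*Spns1*-cKO library was the lowest of its group. The means were 13.3 ± 1.11 and 59.1 ± 20.3 CPM (SD, n = 3), for a rise of 2.15 ± 0.27 on the log2 scale (SE, edgeR adjusted p = 0.000901).

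*Anxa3*, whose product is a short annexin known from neutrophils and bile duct cells, lies at chr5:96793339-96845966 on the plus strand. It was the scarcest of the 7 annexin members in control livers, at 2.81, 3.05 and 2.69 CPM, against 12.2, 13.3 and 14.5 CPM in g*Spns1*-cKO livers. Its libraries were close together within each group. It rose by 2.22 ± 0.16 on the log2 scale (SE, edgeR adjusted p = 8.07e-06), and this rise and that of *Anxa2* were not separated by their errors, *Anxa2* being the higher without the second g*Spns1*-cKO library (2.41 against 2.23) or the first control library. Of its exon bases, 3.07% are shared with *Gm42603*, a gene with 0 counts in every library.

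*Anxa1* encodes the annexin that is induced by glucocorticoids and acts on formyl peptide receptors of leukocytes. It lies at chr19:20373428-20390944 on the minus strand. Levels were 3.56, 3.90 and 4.66 CPM in controls and 10.1, 11.2 and 13.2 CPM in g*Spns1*-cKO livers, with no overlap. It rose by 1.51 ± 0.17 on the log2 scale (SE, edgeR adjusted p = 0.000124).

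*Anxa5* encodes the phosphatidylserine-binding annexin that is used to stain dying cells. It lies at chr3:36448923-36475894 on the minus strand. It was at 89.7, 81.2 and 78.1 CPM in controls and at 281.2, 144.1 and 174.2 CPM in g*Spns1*-cKO livers. The first g*Spns1*-cKO library stood well above the other two, and the lowest was still above every control. It rose by 1.27 ± 0.23 on the log2 scale (SE, edgeR adjusted p = 0.00322) and 0.94 without the first g*Spns1*-cKO library.

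*Anxa4*, an annexin of secretory and biliary epithelia, lies at chr6:86736840-86793584 on the minus strand. It rose least of the 7, from 46.0, 45.1 and 47.5 CPM in controls to 54.3, 66.1 and 61.3 CPM. The rise was 0.39 ± 0.11 on the log2 scale (SE, edgeR adjusted p = 0.0138). This call was lost without the second g*Spns1*-cKO library (0.32, adjusted p = 0.0503) or without the third (0.38, adjusted p = 0.0521).

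*Anxa6*, the longest annexin, is known from late endosomes and cholesterol traffic and lies at chr11:54979108-55033445 on the minus strand. It had 142.3, 160.2 and 144.7 CPM in controls and 179.1, 178.1 and 188.4 CPM in g*Spns1*-cKO livers. All 3 g*Spns1*-cKO libraries were above all controls, yet the log2 fold change of 0.29 (95% interval 0.04 to 0.53) missed the threshold, with an adjusted p of 0.0583 by edgeR. It passed under library size only (0.73), upper-quartile scaling (0.42), the filter of at least 10 counts in every library (0.33, adjusted p = 0.0334) and limma-voom (0.29, adjusted p = 0.0466).

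*Anxa7*, encoding synexin, the first annexin described, lies at chr14:20455260-20480133 on the minus strand. It was at 165.2, 153.5 and 154.5 CPM in controls and at 149.0, 127.4 and 153.6 CPM in g*Spns1*-cKO livers, and the groups overlapped. The log2 fold change was -0.14 (95% interval -0.40 to 0.12, adjusted p = 0.366, edgeR), and it turned to 0.30 with an adjusted p of 0.0447 under library size only. An increase of more than 0.12 on the log2 scale lay outside its interval under TMM scaling.

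*S100a11*, encoding the partner of annexin A1, was at 5.94, 7.08 and 7.23 CPM in controls and at 22.7, 13.9 and 21.6 CPM in g*Spns1*-cKO livers. The groups were apart, with the second g*Spns1*-cKO library again lowest. The log2 fold change was 1.52 ± 0.19 (SE, edgeR adjusted p = 0.000238). This count is uncertain because the processed pseudogenes *Gm12854* and *Gm7665* match its transcript at 99.0% and 98.7% of 297 bases, the same number of bases as its whole coding sequence. They held 25 to 39 and 11 to 12 counts in controls and 36 to 55 and 25 to 56 in g*Spns1*-cKO libraries. With their counts added, an analysis chosen after seeing the data, the log2 fold change was 1.39 (adjusted p = 0.000248, edgeR).

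*S100a6*, encoding calcyclin, which binds annexins A2 and A6 among others, was the scarcest S100 partner. It had 37, 78 and 48 counts in controls and 176, 252 and 276 in g*Spns1*-cKO livers. These were 1.32, 2.53 and 1.90 CPM against 4.89, 6.57 and 7.02 CPM, without overlap. This was a rise of 1.68 ± 0.27 on the log2 scale (SE, edgeR adjusted p = 0.000791).

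*S100a10*, encoding the partner of annexin A2, was not called in either direction. It was at 107.1, 73.0 and 82.6 CPM in controls and at 121.9, 35.4 and 64.0 CPM in g*Spns1*-cKO livers. The first g*Spns1*-cKO library was the highest of all 6, and the other two were below every control. The log2 fold change was -0.25 with a 95% interval from -1.49 to 0.999 (adjusted p = 0.721, edgeR). This interval holds a 2-fold fall and ends just short of a 2-fold rise. Its direction turned under library size only (0.19) and without the second g*Spns1*-cKO library (0.09).

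**Figure D2:**
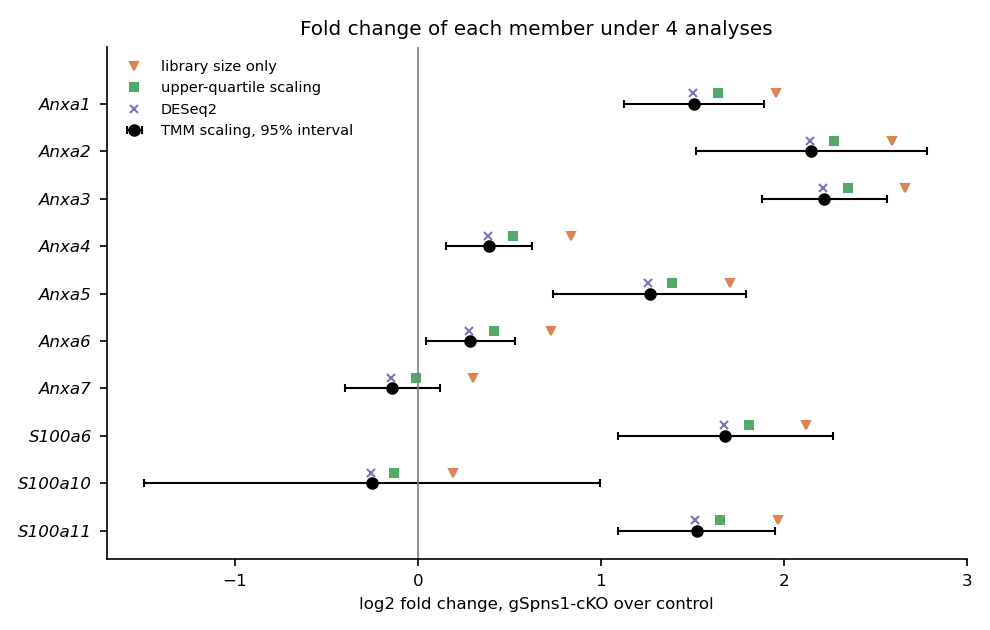
Log2 fold change of each member, g*Spns1*-cKO over control (x axis), by edgeR with TMM scaling and its 95% interval (black), library size only, upper-quartile scaling and DESeq2. The intervals of *Anxa7* and *S100a10* span 0, and library size only places every member higher, with the sign of *Anxa7* and *S100a10* turned.

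The spread among g*Spns1*-cKO livers followed more than 1 order. In *Anxa2*, *Anxa5*, *S100a10* and *S100a11* the first library was highest and the second lowest. In *Anxa1*, *Anxa3* and *S100a6* the first library was lowest and the third highest. The first g*Spns1*-cKO library also had the highest sum of macrophage markers, 823 CPM against 561 and 593 CPM. The same held for endothelial markers, at 264 CPM against 218 and 244 CPM. Its sums of hepatocyte, stellate cell and fibroblast, neutrophil and mesothelial markers were the lowest of its group. Those of lymphocyte and cholangiocyte markers lay between the others. The part of these cell types in the members' levels was not tested. The members closest in pattern to each other, by the root mean square difference of centred log2 CPM over the 6 libraries, were *Anxa4* and *Anxa6* (0.12 log2), followed by *Anxa1* and *S100a6* (0.22). This measure takes in the shift between the groups as well as the spread within them, so genes with like fold changes come out close. Among 8009 genes tested with a mean of at least 10 CPM, the 3 nearest to *Anxa2* were *Tceal8* (0.15), *Col6a3*, a collagen VI chain (0.17), and *Cdh1*, the epithelial cadherin (0.18). *Cdh1*, for example, was at 23.5, 24.4 and 20.7 CPM in controls and at 112.1, 78.7 and 109.9 CPM in g*Spns1*-cKO livers.

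Levels were next compared between members per kilobase of gene length, as TMM-scaled RPKM. The length used for *Anxa2*, 3731 bases, equals all its annotated exon bases together, and a single message may be shorter. The order between members, and their shares of a sum, depend on such lengths. In control livers *S100a10* stood first at 72.2 ± 14.5 RPKM (SD, n = 3), followed by *Anxa6* at 50.9 ± 3.31 and *Anxa5* at 46.7 ± 3.37, which overlapped each other. *Anxa7* (26.3), *S100a11* (13.2), *Anxa4* (9.95) and *Anxa2* (3.56) came next, each clear of its neighbours. *Anxa1* (1.55) and *S100a6* (1.40) overlapped, and *Anxa3* was last at 0.782 RPKM. In g*Spns1*-cKO livers *Anxa5* stood first at 112.5 ± 40.5 RPKM, above *Anxa6* at 62.1 ± 1.93, and *Anxa6*, *S100a10* (60.9 ± 36.4) and *S100a11* (38.0 ± 9.44) followed, with *S100a10* overlapping both. *Anxa7* was at 23.9, *Anxa2* at 15.8 and *Anxa4* at 13.04 RPKM, *Anxa2* and *Anxa4* overlapping. *S100a6*, *Anxa1* and *Anxa3*, at 4.51, 4.41 and 3.66 RPKM, overlapped in turn. The order was the same with the FPKM values deposited by the authors, for all 10 members in both groups. Those values also scale counts by gene length and library total, so the match was largely fixed in advance and is no separate check.

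The 10 members together summed to 217.3 to 243.5 RPKM in control libraries and 256.3 to 432.0 RPKM in g*Spns1*-cKO libraries. *S100a10* took 27.7% to 36.3% of that sum in controls and 11.4% to 23.3% in g*Spns1*-cKO livers. *Anxa5* took 20.1% to 21.0% and then 29.9% to 36.6%. Neither pair of ranges overlapped.

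**Figure D3:**
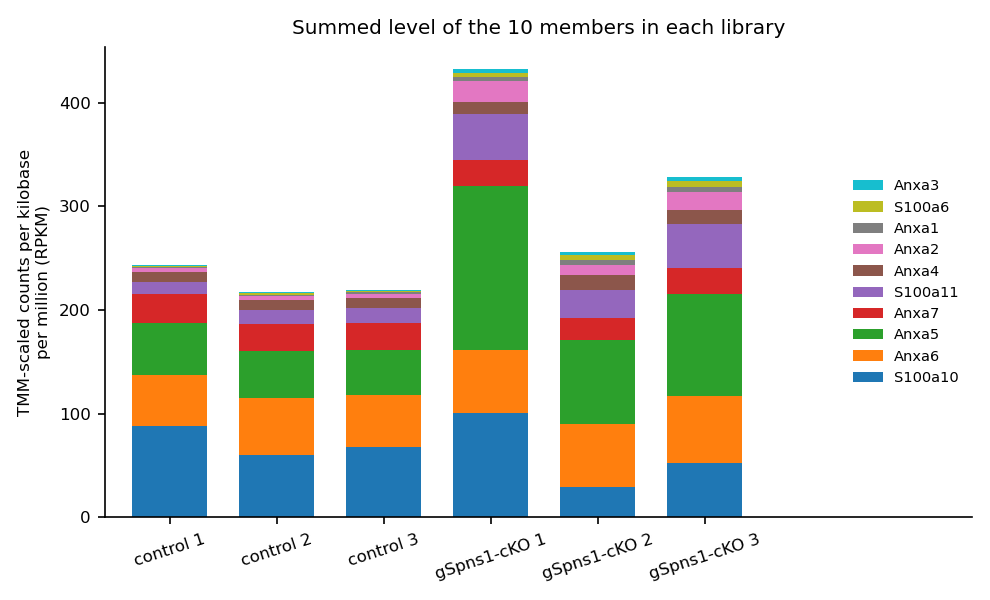
Summed level of the 10 members in each library, as TMM-scaled RPKM (y axis, from 0), stacked with the most abundant control gene at the bottom. Control sums lie between 217.3 and 243.5 RPKM, all below the g*Spns1*-cKO sums, and the *Anxa5* segment is the widest in all 3 g*Spns1*-cKO libraries.

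Ratios of partners within a library do not depend on how libraries are scaled. Their absolute size depends on the gene lengths used and is not a measured number of messages, whereas their change between groups does not depend on length. For each *Anxa2* read per kilobase there were 22.6, 17.8 and 20.04 *S100a10* reads in the control libraries and only 4.98, 2.99 and 3.00 in the g*Spns1*-cKO libraries. The *S100a10* to *Anxa2* ratio was thus 5.65-fold lower, with no overlap and a log2 difference of -2.50. The log2 difference stayed between -2.74 and -2.38 with each library left out. By contrast, the *S100a11* to *Anxa1* ratio was 8.52, 9.27 and 7.92 in controls and 11.5, 6.31 and 8.40 in g*Spns1*-cKO livers. It overlapped between groups and differed by -0.01 on the log2 scale, and by -0.23 to 0.20 with each library left out.

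The *S100a10* to *S100a11* ratio was lower without overlap too, at 7.60, 4.35 and 4.82 in controls and 2.26, 1.07 and 1.25 in g*Spns1*-cKO livers. The ratio of *S100a11* to *Anxa2* was 2.97 to 4.16 in controls and 2.20 to 2.79 in g*Spns1*-cKO livers, and that of *S100a6* to *Anxa6* was 0.0198 to 0.0339 and then 0.0585 to 0.0799, neither with overlap. The ratios of *S100a6* to *Anxa2* and of *Anxa1* to *Anxa2* overlapped, with log2 differences of -0.37 and -0.58, which ranged from -0.74 to -0.0037 and from -0.88 to -0.28 with each library left out, nearest to 0 without the first g*Spns1*-cKO library and farthest without the second. A two-sided exact permutation test gave p = 0.1 for each of the 4 ratios without overlap, the smallest p that 3 against 3 libraries allow. By the same exact test p was 0.3 to 0.9 for the other 3 ratios, and the smallest p adjusted over the 7 ratios was 0.175. With so few libraries this test could not have passed 0.05 for any ratio, so its p says nothing against a difference. The log2 difference of the *S100a10* to *Anxa2* ratio stood beside SDs of 0.17 in controls and 0.42 in g*Spns1*-cKO livers (n = 3 each).

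**Figure D4:**
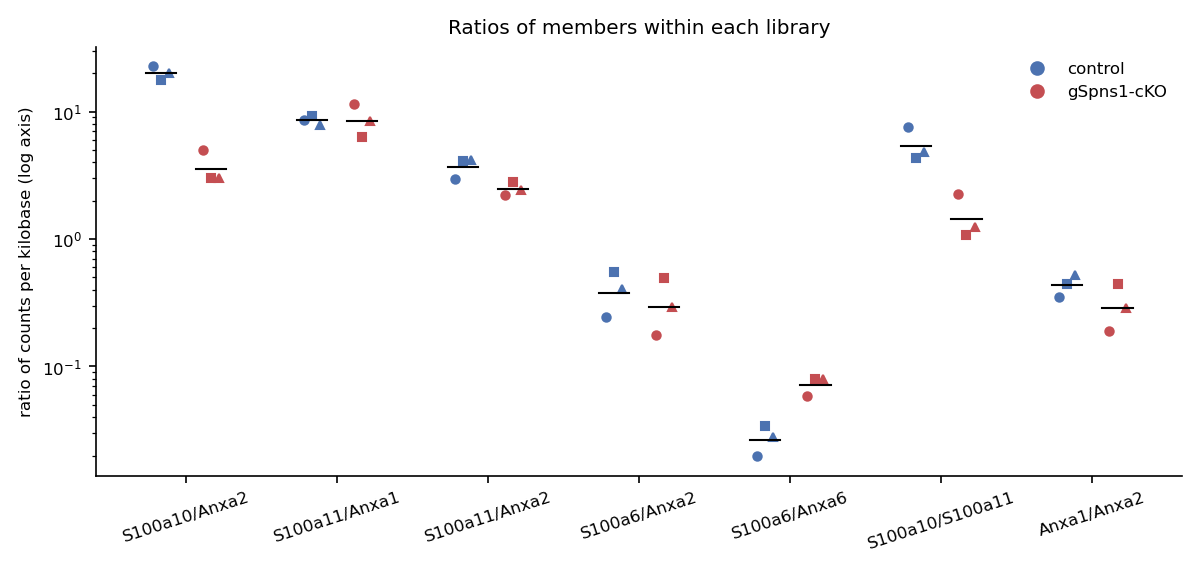
Ratio of counts per kilobase between members in each library (y axis, log scale), with lines at the geometric mean of each group. The *S100a10* to *Anxa2* ratio is 17.8 to 22.6 in controls and 2.99 to 4.98 in g*Spns1*-cKO libraries, while the *S100a11* to *Anxa1* ratio overlaps between groups.

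The counts called in the related lists and marker lists below stand beside 21.3% of all genes tested called higher and 20.5% called lower. Among the other annexins, 3 of the 4 tested were higher and 0 lower, as also by limma-voom, by DESeq2 and at an unadjusted p under 0.05 by edgeR, with a median log2 fold change of 1.43. *Anxa8*, a short annexin of epithelia, was at 9, 25 and 7 counts in controls against 274, 344 and 304 in g*Spns1*-cKO livers, and its log2 fold change of 4.07 ± 0.34 (SE, edgeR adjusted p = 2.16e-05) exceeded that of every member. *Anxa13*, an annexin of gut epithelium, rose by 2.08 (adjusted p = 0.00132), from 12 to 20 counts to 59 to 110. *Anxa9*, *Anxa11* and *Anxa10*, named after their values were seen, had a log2 fold change of 0.77 (adjusted p = 0.0238), one of -0.17 (adjusted p = 0.388, groups overlapping) and 0 counts in all 6 libraries. The call of *Anxa9* was lost without the first or the second control library or without the first or the third g*Spns1*-cKO library, with adjusted p up to 0.0698, which leaves 2 other annexins higher. A count of 3, the most that a count of 0 allows, was 0.0763 to 0.119 CPM, for counting error only.

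Of 14 other S100 genes 6 were tested, of which 3 were higher and 2 lower, with a median of 0.55. *S100g*, the calcium-binding protein of gut and kidney epithelium, had 5 to 7 counts in controls and 19 to 26 in g*Spns1*-cKO livers (log2 fold change 1.56, adjusted p = 0.0211, edgeR, up to 0.0733 without single libraries and 0.0505 by DESeq2). *S100a8*, a component of the neutrophil and monocyte protein calprotectin, went from 16, 33 and 40 counts to 72, 129 and 136 (log2 fold change 1.46, adjusted p = 0.0107). *S100a13*, linked to the export of growth factors without a signal peptide, was lower by -0.80 (adjusted p = 0.000757). *S100a1*, abundant at 151.0 ± 14.3 CPM in controls and 114.2 ± 3.94 CPM in g*Spns1*-cKO livers, was lower by -0.40 (adjusted p = 0.0164). For *S100a1* the direction was 0.04 under library size only, and the call was lost under upper-quartile scaling and without the third control library. *S100a4* was listed at 0 or 1 count, but 51.7% of its exon bases are shared with *Gm42674* on the same strand, so reads there could be left uncounted.

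Genes of plasma membrane repair, among them the ferlins, calpains, AHNAK proteins and caveolar proteins, gave 9 higher and 2 lower of 17 tested, with a median of 0.87. *Myof*, encoding myoferlin, a membrane-anchored calcium sensor of fusion and repair, rose by 2.89 (adjusted p = 2.18e-05, edgeR), from 28 to 57 counts to 351 to 567. *Ahnak2*, related to the scaffold that binds annexin A2 and S100A10, rose by 2.52 (adjusted p = 0.000583). *Fer1l5*, another ferlin, was lower by -0.97 (adjusted p = 0.00481) and *Cav1*, encoding caveolin 1, by -0.53 (adjusted p = 0.0417). Under library size only neither was called, *Fer1l5* being at -0.53 (adjusted p = 0.0614). The call of *Cav1* was lost also without either of the first 2 control libraries or without the first or the third g*Spns1*-cKO library, with adjusted p up to 0.151. *Trim72*, a muscle repair factor, was too scarce to test, with 5 to 23 counts in controls and 3 to 9 in g*Spns1*-cKO livers.

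The ESCRT list, the machinery that pinches off injured membrane, gave 2 higher and 5 lower of 17 tested, with a median of -0.15, and under library size only 9 higher and 0 lower. *Chmp4c* rose by 1.83 (adjusted p = 0.000301, edgeR) and *Chmp2b* by 0.37 (adjusted p = 0.0288, up to 0.101 without single libraries). *Pdcd6*, encoding ALG-2, which recruits ESCRT in response to calcium, was lower by -0.62 (adjusted p = 0.00171) and *Chmp1a* by -0.50 (adjusted p = 0.00968), although neither was called under library size only, at -0.18 and -0.05.

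Of 13 tested genes of the response to lysosome damage, 4 were higher and 4 lower, with a median of -0.28. *Lgals3*, encoding galectin 3, which marks ruptured lysosomes and is also a macrophage product, rose by 3.19 ± 0.15 (SE, edgeR adjusted p = 9.88e-07), from 103 to 130 counts to 1165 to 1563. *Trim16*, a galectin 3 partner, went from 4 to 7 counts to 19 to 21 (log2 fold change 1.37, adjusted p = 0.0371) and was not called when any single library was left out. *Atg2a*, a lipid transfer protein, was lower by -0.78 (adjusted p = 0.000655). *Pi4k2a*, the kinase that starts phosphoinositide-driven lysosome repair, was lower by -0.55 (adjusted p = 0.0152), with adjusted p up to 0.0670 without single libraries. Under library size only *Atg2a* was still called, at -0.34 (adjusted p = 0.0419), and *Pi4k2a* was not, at -0.11 (adjusted p = 0.560), and 1 gene of the list was lower. *Osbpl10* was not tested, at 3 to 4 counts in controls and 8 to 10 in g*Spns1*-cKO livers.

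Annexin A2 and S100A10 gather plasminogen and its activator at the cell surface, and all 7 tested genes of that system were called, 5 higher and 2 lower, with a median of 1.14. By limma-voom 4 were higher, as by edgeR when any 1 library except the first g*Spns1*-cKO library was left out. *Plaur*, the urokinase receptor, rose by 2.23 (adjusted p = 0.000547, edgeR) and *Plat*, tissue plasminogen activator, by 2.12 (adjusted p = 0.00170), from 11 to 31 counts to 80 to 136 for *Plat*. The 2 genes called lower were *Serpinf2* and *Plg*. *Serpinf2*, alpha-2-antiplasmin, was lower by -0.78 (adjusted p = 0.00539) and *Plg*, plasminogen, by -0.51 (adjusted p = 0.0291), from 1837 ± 286 to 1290.4 ± 73.2 CPM (SD, n = 3). Neither fall was called under library size only, at -0.34 and -0.06, and that of *Plg* was not called without the second or the third control library or the third g*Spns1*-cKO library, with adjusted p up to 0.112.

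Receptors of annexin A1 and S100 proteins, with cytosolic phospholipase A2, the enzyme that annexin A1 is known to restrain, gave 3 higher and 0 lower of 5 tested, with a median of 1.86, and the same counts by limma-voom, by DESeq2 and at an unadjusted p under 0.05 by edgeR. *Pla2g4a*, the phospholipase, went from 15, 20 and 18 counts to 114, 98 and 111 (log2 fold change 2.17, adjusted p = 0.000239, edgeR). *Fpr1*, a formyl peptide receptor of phagocytes, went from 14, 19 and 21 counts to 105, 105 and 94 (log2 fold change 2.05, adjusted p = 0.000486). *Pla2g4b* was not tested, at 1 to 3 counts in controls and 6 to 15 in g*Spns1*-cKO livers. Of the copines, another family of calcium-dependent phospholipid binders, 3 were tested and 0 were called by edgeR, where 1 was higher at an unadjusted p under 0.05, as it was called by limma-voom and by DESeq2. *Cpne1* and *Cpne7* were not tested, with at most 10 and 14 counts. Over the 8 lists 29 of 72 tested genes were higher and 15 lower, with a median of 0.049, beside 0.014 for all genes. Of all genes tested 21.3% were higher and 20.5% lower, so the share lower in the lists was near that of all genes. Under library size only these counts were 43 and 2, and under upper-quartile scaling 30 and 9.

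**Figure D5:**
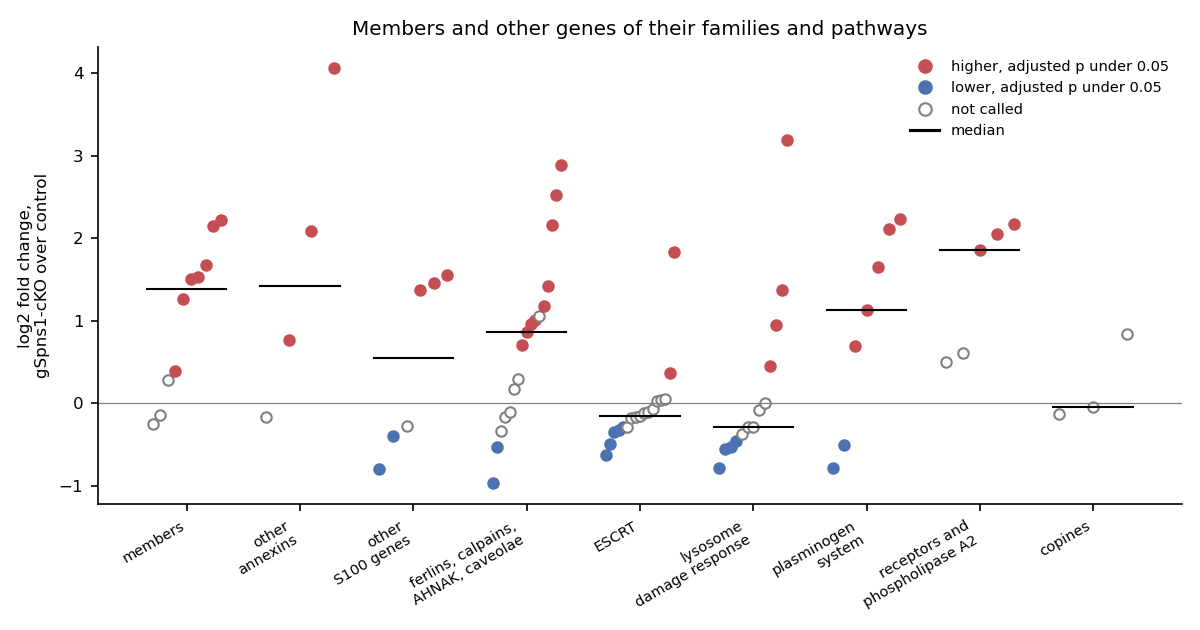
Log2 fold change (y axis, g*Spns1*-cKO over control) of the 10 members and of each tested gene of 8 related lists, red for genes called higher, blue for genes called lower and open for genes not called, with the list median as a line. The members' median is 1.39, close to that of the other annexins at 1.43, while the ESCRT and lysosome damage lists lie at -0.15 and -0.28.

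Markers of macrophages, stellate cells and fibroblasts, cholangiocytes and endothelial cells were mostly higher in the same livers. Of the macrophage and Kupffer cell markers 10 of 10 were called higher, and their summed level was 144.1 to 217.2 CPM in controls and 561 to 823 CPM in g*Spns1*-cKO livers, led by *Lyz2* and *Clec4f*. Stellate cell and fibroblast markers were higher in 6 of 9 (190.5 to 221.1 CPM, then 504.0 to 563.1), cholangiocyte markers in 6 of 7 tested (21.9 to 22.6 CPM, then 41.1 to 54.4) and endothelial markers in 5 of 8 (147.6 to 163.5 CPM, then 218.0 to 263.9). Mesothelial markers were higher in 2 of 5 (5.53 to 18.8 CPM, then 20.1 to 26.2). Of these *Wt1*, named after its values were seen, had a mean of 0.600 CPM in controls and 6.07 CPM in g*Spns1*-cKO livers. Of the lymphocyte markers 1 was higher and 1 lower of 8 (4.35 to 5.66 CPM, then 6.03 to 7.01). Of 8 neutrophil markers 2 were tested and 1 was higher (1.62 to 3.38 CPM, then 4.95 to 7.40), and *Ly6g* was at 0, 2 and 0 counts in controls and at 0 in all 3 g*Spns1*-cKO libraries. The neutrophil marker called was *Csf3r*, named after its values were seen, with a mean of 1.24 CPM in controls and 4.89 CPM in g*Spns1*-cKO livers. Of the hepatocyte markers 0 were higher by edgeR (1 at an unadjusted p under 0.05, 1 by limma-voom and 2 by DESeq2) and 4 of 8 lower, as by limma-voom, with 6 lower at an unadjusted p under 0.05 and 6 by DESeq2. The part of these cell types in the members' levels was not tested.

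The promoters of *Anxa2*, *S100a11* and *Anxa5*, all of which rose, are shown because *Anxa2* and *S100a11* hold the same AP-1 motif and *Anxa5* does not. They are RefSeq windows on GRCm38.p6, given 5′ to 3′ on the gene's own strand and ending where the table places the gene's first base, with the motifs searched in capitals. They span chr9:69453433-69453619 (plus strand), chr3:93520246-93520487 (plus strand) and chr3:36475895-36476137 (minus strand).
Anxa2: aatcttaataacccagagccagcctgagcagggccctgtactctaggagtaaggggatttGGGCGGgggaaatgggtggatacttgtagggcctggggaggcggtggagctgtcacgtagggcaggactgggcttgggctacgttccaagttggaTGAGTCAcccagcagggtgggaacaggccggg
S100a11: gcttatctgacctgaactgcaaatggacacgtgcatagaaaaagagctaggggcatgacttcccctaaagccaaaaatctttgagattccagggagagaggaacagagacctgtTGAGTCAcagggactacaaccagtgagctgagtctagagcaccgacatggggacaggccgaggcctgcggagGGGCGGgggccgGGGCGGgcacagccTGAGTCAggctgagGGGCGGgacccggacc
Anxa5: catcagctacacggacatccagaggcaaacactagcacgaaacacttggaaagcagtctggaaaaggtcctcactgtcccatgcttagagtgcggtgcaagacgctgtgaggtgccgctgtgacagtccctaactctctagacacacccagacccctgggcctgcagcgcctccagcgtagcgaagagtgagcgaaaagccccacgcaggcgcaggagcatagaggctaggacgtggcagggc
The letters TGACTCA (AP-1) were searched on both strands of the 250 bases before each RefSeq start, with GGAATG (TEAD), GGGCGG (GC box), TATAAA (bound by TBP) and, named for its own letters, the CCAAT box. The motifs do not overlap one another in these windows. Windows were present for 7 of the 10 members, and *Anxa3*, *Anxa6* and *S100a10* were not among them. AP-1 letters occurred in *Anxa2*, at -95 from the start, and in *S100a11*, at -136 and -38, all on the minus strand and so read in the sequences above as the reverse complement. Of all 32851 windows 4.46% held them, and 3.55% of the 14102 windows of tested genes. GC boxes were found 3 times each in *Anxa2* and *S100a11* and also in *Anxa7* (32.7% of all windows and 53.8% of those of tested genes). The *Anxa7* window at the start of the gene held a box at -8. Another *Anxa7* window has its start 192 bases inside the gene. Its boxes at -71, -57 and -28 lie within the gene, and its box at -200 is the same as that at -8. In *Anxa2* the start lies 63 bases inside the gene as the table places it, and 2 of its 3 GC boxes lie in those bases, which are not printed, as do its TBP letters. The TBP letters were found in *Anxa2* and *Anxa1* (12.4% of all windows and 7.08% of those of tested genes), the TEAD letters in *Anxa1* (12.6% of all windows, and 1554 of the 14102 windows of tested genes) and the CCAAT box in *S100a6* (33.8% and 35.1%). In *Anxa1* the start lies 273 bases inside the gene by the same coordinates. Its whole window of 250 bases, with its TBP and TEAD letters, therefore lies within the gene. The *Anxa4* and *Anxa5* windows held none of the 5, and one of the *Anxa4* windows has its start 18470 bases inside the gene.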

How the data were processed

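Libraries from 3 control and 3 g*Spns1*-cKO livers were made from poly-A RNA and sequenced commercially. The submitters' notes name fastp, HISAT2 2.0.5, featureCounts 1.5.0-p3 and mm10. The strand setting is not given in the sources used here. The authors deposited whole-number counts per gene, not normalized, and FPKM values, scaled by the authors for gene length and library total. Their table also holds, as deposited, a mean signal per group and the log2 fold change and p-value of the authors' own comparison, none of which was used. Gene coordinates were the same as in GENCODE M21 (GRCm38) for all 10 members.

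The 10 members, the 8 related gene lists and the 8 marker lists were chosen with earlier results of these data known. Genes were named from the lists by a rule that took the 2 largest rises and 2 largest falls called per list, genes not tested with a count of at least 10 in a library, and the 3 genes nearest to *Anxa2*. From marker lists it took genes at 0 counts in a group and the 2 most abundant.

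Counts were analysed with edgeR 4.0.16 in R 4.3.3 (filterByExpr, TMM scaling, robust quasi-likelihood test, Benjamini-Hochberg adjustment over 15449 genes, threshold 0.05). CPM were taken with TMM-scaled library sizes, and RPKM are CPM per kilobase of the deposited gene length. Standard errors are the log2 fold change divided by the square root of F. The depth was 30350002 to 35295611 counts per library, and no 2 libraries of a group agreed within sampling noise (chi-square per gene 40.1 to 121). For the pattern measure 0.5 CPM was added before taking logs. Ratios were tested by exact permutation. The scripts were tested on simulated data. The alternatives were DESeq2 1.42.0, limma-voom 3.58.1, other scalings, other filters on low counts, a threshold of 0.01, a replicate block, leaving out each library, and the added counts of pseudogenes.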

Additional observations from a re-analysis of the deposited data

How the results depend on the processing

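The 7 members called higher by edgeR numbered 6 to 9 under the alternatives run, with 0 lower under all of them. *Anxa1*, *Anxa2*, *Anxa3*, *Anxa5*, *S100a6* and *S100a11* kept their direction and their call under every alternative, including the threshold of 0.01. *Anxa4* lost its call at that threshold and without the second or the third g*Spns1*-cKO library. Library size only, which raises all genes by construction, turned *Anxa7* to 0.30, *S100a10* to 0.19 and *S100a1* to 0.043 on the log2 scale, moved the members' median to 1.83, and left *Spns1* at -0.43. Without the second g*Spns1*-cKO library *S100a10* was at 0.086, within a range of -0.82 to 0.086 over single libraries, and without single libraries the members' median ranged from 1.17 to 1.49, lowest without the first g*Spns1*-cKO library. *Spns1* was at -0.74 under upper-quartile scaling (adjusted p = 0.0635, edgeR), missed the threshold of 0.01 at -0.87, and ranged from -1.18 to -0.68 without single libraries, where the call was lost without the second control library and without the first or the third g*Spns1*-cKO library. The *S100a11* to *Anxa1* ratio ranged from -0.23 to 0.20 on the log2 scale without single libraries, and the other 6 ratios kept their direction, although that of *S100a6* to *Anxa2* ranged from -0.74 to -0.0037 and that of *Anxa1* to *Anxa2* was -0.28 without the first g*Spns1*-cKO library.

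The genes lower over the 8 lists, 15 in all, were 2 under library size only, 9 under upper-quartile scaling, 7 at a threshold of 0.01 and 8 to 18 without single libraries (9 without the second control library, 8 without the third g*Spns1*-cKO library). By list, the other annexins gave 2 to 3 higher (3 in the report), the plasminogen list 4 to 5 (5), the other S100 genes gave 1 to 3 higher (3) and 1 to 3 lower (2), the membrane repair list 0 to 3 lower (2), the ESCRT list 1 to 9 higher (2) and 0 to 5 lower (5), the lysosome damage list 1 to 6 higher (4) and 1 to 6 lower (4), the plasminogen list 0 to 2 lower (2) and the copines 0 to 2 higher (0). Where no value is given, the cause was not tested.

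The labels do not say whether the replicate numbers pair the libraries, and with 3 libraries a group the correlations cannot settle it. Deviations from the group means of libraries with the same number correlated across genes at 0.04, 0.03 and -0.03, and not every library correlated best with its own number. With the replicate block edgeR called 3084 genes higher and 3016 lower, against 3286 and 3166 without it, and the same number of members, 7 higher and 0 lower, with a median of 1.35. With 3 libraries a group, small fold changes such as that of *Anxa6* and the wide interval of *S100a10* cannot be settled, and genes listed at under 10 counts were mostly left untested.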
